A study of Rattus norvegicus with 8 samples.

Results

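Heavily covered joint domains of H2AK119ub1 were examined in rat sciatic nerve. They were obtained by pooling the enriched regions of sham nerve and of injured nerve, merging those that lay within 5000 bp of each other, and keeping merged domains that spanned at least 10000 bp and in which the regions of both lists together covered at least 10000 bp. Of 5513 joint domains with the required span, 277 were retained, or 5.02%, after 2 others that also reached the coverage had been left out by rule. The 277 domains held 15794 of the 181386 regions in the lists, with 6451 from sham nerve and 9343 from injured nerve. The members were chosen by covered length in both lists, so the covered lengths, widths and numbers of regions given below are descriptions and were not tested.

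H2AK119ub1 is histone H2A carrying a single ubiquitin on a lysine of its C-terminal tail. It is deposited by Polycomb repressive complex 1 (PRC1) and is removed by H2A deubiquitinases such as BAP1 and USP16. The mark is often found together with H3K27me3, the product of PRC2, and each complex can help to recruit the other. At promoters it is usually focal around CpG islands, whereas over silent clusters of developmental genes it can spread as a broad domain. In peripheral nerve, Polycomb repression is known for holding injury-response genes of Schwann cells, such as Shh and Gdnf, at low levels before injury.

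The samples were sciatic nerves of 2 male Sprague Dawley rats, aged P28 according to the labels and called adult in the protocols. The injured group was the nerve distal to a transection, taken at 1 day post injury (1 dpi), and the control was the contralateral nerve, for which only the skin was opened (sham). No genetic change or drug was part of either group. The labels give 2 ChIP and 2 input libraries for each condition, but the ChIP libraries of a condition were combined before regions were called, so every measure has 1 value per condition and its spread over replicates is unknown. Whole nerve holds Schwann cells, fibroblasts, endothelial cells and immune cells, and a change in the number of cells of a type cannot be told apart from a change in the mark per cell. Gene positions on rn5 were not used here, so genes in the domains are not named and the tissue was not checked against marker genes.

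Depth differed between the lists. Regions were called from 19714687 tags in sham and from 76420053 at 1 dpi, 3.88-fold more. A sham region needed 10 tags and a 1 dpi region 20, and relative to depth the sham threshold was 1.94-fold higher. The regions held 9.73% of the sham tags and 5.33% of the 1 dpi tags. Depth and calling threshold therefore cannot be told apart from injury in any difference between the lists. Covered length counts called bases and does not measure the amount of the mark.

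The domains were long stretches of interrupted enrichment. Their span ranged from 15524 to 165047 bp with a median of 60476 bp, and a median of 24.0% of the span was covered by either list (range 11.9 to 73.2%). In sham nerve a domain had a median of 21 regions (7 to 78) covering 6947 bp (1095 to 23383 bp). At 1 dpi the median was 31 regions (7 to 95) covering 10166 bp (5915 to 29689 bp). Every domain thus held regions of both conditions, with no fewer than 7 from either. All together the domains spanned 17.6 Mb, or 0.879% of the genome size used in calling, and 4.32 Mb of it was covered.

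These domains took up a larger part of the 1 dpi list than of the sham list. They held 7.86% of sham regions and 11.1% of sham bases, against 9.41% of 1 dpi regions and 14.6% of 1 dpi bases. Coverage at 1 dpi alone reached 10000 bp in 146 of the 277 domains and sham coverage alone in 52. Both lists reached it on their own in 51 domains, and in 130 only the union of the lists did. The rule used these same coverages, so the larger part of the 1 dpi list follows in part from the selection. At the limit itself, the members just inside covered 10034, 10043 and 10054 bp (on chromosomes 9, 14 and 3), and the domains just outside covered 9933, 9924 and 9913 bp (on chromosomes 20, 16 and 10).

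Within the domains, more bases were covered at 1 dpi than in sham. The summed coverage was 2.08 Mb in sham and 3.18 Mb at 1 dpi, a ratio of 1.53. In the other 5234 joint domains the ratio was 1.45, and over regions outside any joint domain it was 0.913. By domain, 251 of 277, or 90.6% (Wilson 95% interval 86.6 to 93.5%), had more 1 dpi bases and 26 had more sham bases, against 70.4% and 29.1% of all joint domains. The interval covers counting error only. A difference of at least 2-fold toward 1 dpi was present in 65 domains, or 23.5%, beside a background of 33.7% over all joint domains. None of the 277 had at least 2-fold more sham bases, beside a background of 9.31%. The ratio of 1 dpi to sham bases had a median of 1.52, and its middle 50% of domains lay between 1.26 and 1.94. In the other joint domains the median was 1.45, with a wider spread (SD of the log2 ratio 1.20, against 0.538 in members). Those domains had fewer regions, a median of 4 in sham and 6 at 1 dpi. In the 277 joint domains next in covered bases, the median ratio was 1.48 and the SD of its log2 0.760. In the 259 others at least as long as the lower quartile of members, these were 1.70 and 0.773. The lower quartiles of the ratio were 1.20 and 1.27 in these 2 sets, near that of members. The rule used these same coverages, and 95 members reached 10000 bp only at 1 dpi and 1 only in sham. The shares above therefore follow in part from the selection.

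**Figure D1:**
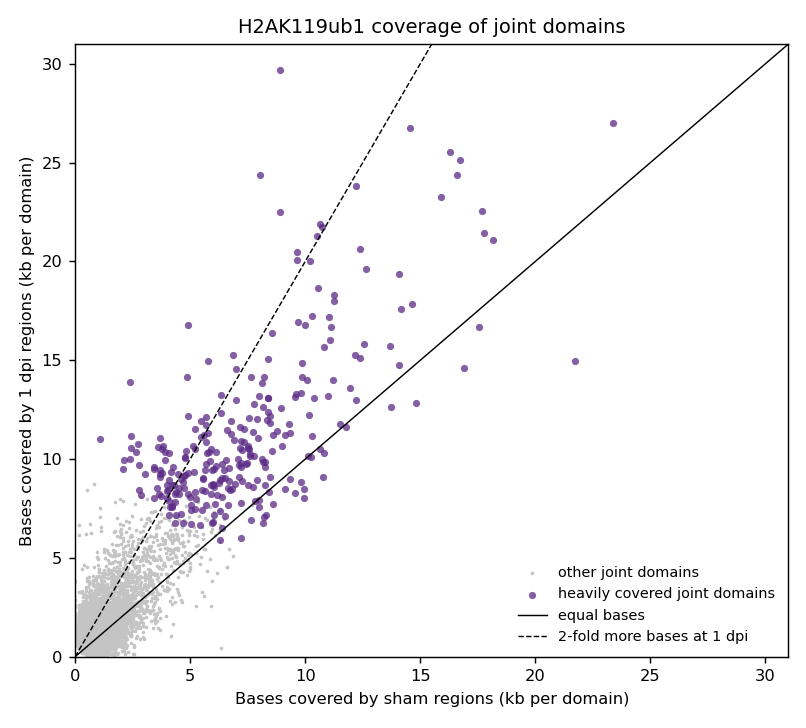
Bases covered by 1 dpi regions (vertical axis, kb) against bases covered by sham regions (horizontal axis, kb) in each joint domain, with the 277 heavily covered domains in purple, the 5234 others in grey, and lines at equal and 2-fold values. Most purple points lie between the lines or above them, 26 lie below the line of equal bases, and 65 lie on or above the 2-fold line.

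The larger 1 dpi coverage came with more regions and, in most domains, with wider ones. Regions were more numerous at 1 dpi in 228 of 277 domains, and the summed ratio of region numbers was 1.45. In the other joint domains they were more numerous in 3695 of 5234, with a higher summed ratio of 1.56. Mean width per domain was larger at 1 dpi in 180 of 277 members, beside 2328 of the 5234 others. Across the domains, sham and 1 dpi coverage had a Pearson r of 0.682 and a Spearman rho of 0.581 (n = 277), and for mean region width these were 0.723 and 0.755. The domains are parts of the same 2 lists and share their depth, so the coefficients describe the lists and carry no p-value.

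The domain with the most covered bases lay on chromosome 5 (169277384 to 169438890). It had 76 sham regions covering 23.4 kb and 91 1 dpi regions covering 27.0 kb, which left the lists nearly balanced at a ratio of 1.16. A second domain of chromosome 5 (157163814 to 157328860) was the longest of all, at 165 kb. There 59 sham regions covered 16.3 kb and 84 1 dpi regions covered 25.5 kb. In both, regions were scattered along the whole length rather than joined, with 125 and 120 separate covered blocks.

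A pair of neighbouring domains on chromosome 4 ranked next. The first (197041527 to 197176917) had 65 sham regions over 14.5 kb and 89 1 dpi regions over 26.8 kb. The second (197230107 to 197360481) had 44 sham regions over 8.91 kb and 95 1 dpi regions over 29.7 kb, the largest 1 dpi coverage of any member and a ratio of 3.33. Adjacent stretches of the same chromosome could thus differ in the balance of the lists. A domain of chromosome 9 (16276080 to 16413541) had 12.2 kb in sham and 23.8 kb at 1 dpi, a ratio of 1.95.

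Other domains among the most covered were compact. On chromosome 4 (146982543 to 147048684), 38 sham regions covered 18.2 kb and 39 1 dpi regions covered 21.1 kb of 66.1 kb. On chromosome 3 (27837156 to 27902702), 41 sham regions covered 16.7 kb and 37 1 dpi regions 25.1 kb of 65.5 kb, with 11.2 kb found in both lists. About as many regions were called in each condition here, and 46.9% and 46.7% of the span was covered, well above the median of 24.0% for all members.

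The strongest sham balance was seen on chromosome 3 (177334647 to 177481923). In this domain of 147 kb, 78 sham regions covered 21.7 kb and 52 1 dpi regions covered 15.0 kb, a ratio of 0.688. The next lowest ratios were 0.808 on chromosome 4 (180611441 to 180733417), 0.831 on chromosome 3 (15541302 to 15564330) and 0.837 on chromosome 12 (51219471 to 51290118). None of these members came near a 2-fold excess of sham bases.

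At the other end, a domain of chromosome 7 (121803648 to 121864668) had 43 1 dpi regions covering 10995 bp but only 7 sham regions covering 1095 bp, a log2 ratio of 3.33. The widest of its sham regions measured 189 bp, little more than a single calling window. Ratios of 5.82, 4.65 and 4.58 followed on chromosome 11 (74288809 to 74370794) and at positions 284016034 to 284072157 and 55123223 to 55163459 of chromosome 1. Sham regions numbered 13, 11 and 12 in these domains and 1 dpi regions 51, 37 and 33. Ratios of at least 3 occurred in 15 of 277 members and were more frequent among the other joint domains, with 1029 of 5234. The latter count includes domains without a sham region.

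**Figure D2:**
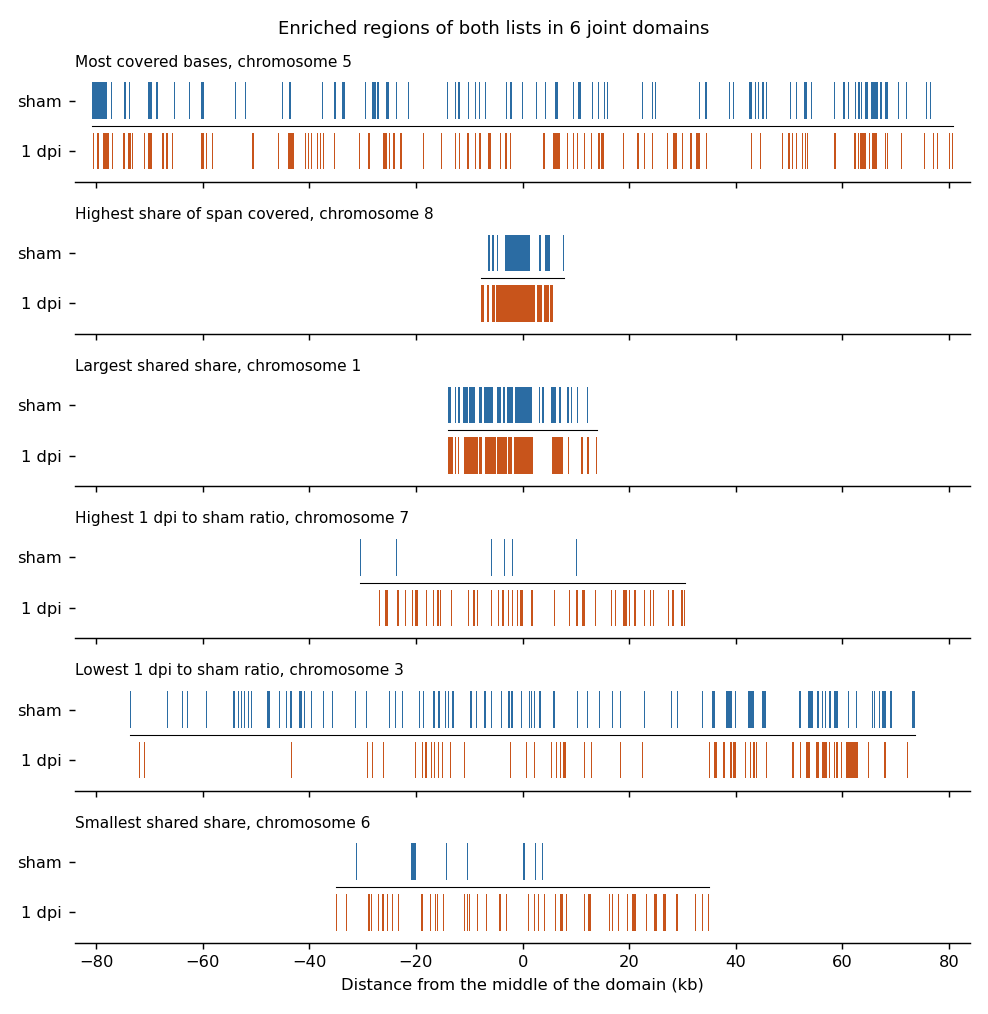
Positions of sham regions (blue) and 1 dpi regions (orange) in 6 named domains, drawn to scale as distance in kb from the middle of the domain, with a black line for the span. Compact domains on chromosomes 8 and 1 hold wide blocks at the same place in both lists, whereas the domains on chromosomes 7 and 6 hold narrow regions that are mostly from the 1 dpi list.

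The extent to which both lists marked the same bases varied widely. Of the 4.32 Mb covered, 21.6% was covered in both lists, 26.5% in sham alone and 51.9% at 1 dpi alone. The shared bases were 44.9% of sham coverage and 29.4% of 1 dpi coverage. In the other joint domains they were 24.2% and 16.7%. Per domain the shared share of covered bases ran from 1.03 to 60.4%, with a median of 19.5%.

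The largest shared share was found on chromosome 1 (272402746 to 272430680), where 11.1 kb of the 18.3 kb covered, or 60.4%, was in both lists. A domain on chromosome 8 (67757984 to 67773507) followed with 60.0%, and one on chromosome 5 (133581720 to 133603168) with 55.5%. These domains spanned 27.9, 15.5 and 21.4 kb, all below the lower quartile of 40.2 kb for the members. The domain on chromosome 8 was also the shortest member and the one with the highest share of its span covered, 73.2%.

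In contrast, the domain with the smallest shared share lay on chromosome 6 (53117757 to 53187767). Its 8 sham regions covered 2.42 kb and its 43 1 dpi regions 10.6 kb, yet only 133 bp were common to the lists, or 1.03% of the covered bases. Shares of 1.76% and 2.93% were found on chromosome 8 (66304011 to 66420744 and 65740732 to 65815333). In these domains the conditions had regions in the same neighbourhood but at different positions.

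Shared coverage went with compactness. Across the 277 domains, the share of the span that was covered and the share of covered bases that was shared had a Pearson r of 0.824 and a Spearman rho of 0.81. Longer domains were less densely covered (Spearman rho -0.729) and shared less (-0.682). Dense coverage alone raises the number of common bases, so the shared share of the span was also divided by the product of both covered shares of the span. This quotient, which is 1 where the lists are placed independently of each other along a domain, had a median of 2.09 over the members, and a rank relation with covered share of rho -0.305, which the lower ceiling of the quotient in dense domains partly fixes.

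To describe both ends of this range, the domains were ordered by the share of the span that was covered and split into 3 groups of 92, 92 and 93. The split was chosen after the values were seen. In the densest group, 30.1 to 73.2% of the span was covered, and in the sparsest 11.9 to 20.7%. Dense domains had a median span of 34039 bp with 19 sham and 20 1 dpi regions, whereas sparse domains had a median span of 76223 bp with 22 sham and 38 1 dpi regions. Pooled over domains, 34.5% of covered bases were shared in the densest group, 18.2% in the middle group and 11.4% in the sparsest. The summed ratio of 1 dpi to sham bases was 1.36, 1.52 and 1.79 in the same order, and at least 2-fold more 1 dpi bases were covered in 9, 21 and 35 domains. The quotient of shared bases to the product of the covered shares had a median of 1.84, 2.29 and 2.21. Its upper limit is the inverse of the larger covered share and falls as coverage rises, so its order among the groups is partly fixed by the formula.

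Regions of dense domains were wide in both conditions. Their mean width was 433 bp in sham and 527 bp at 1 dpi, against 248 and 256 bp in sparse domains. Of sham regions, 66.0% were overlapped by a 1 dpi region in dense domains and 38.0% in sparse domains. The corresponding shares of 1 dpi regions overlapped by a sham region were 51.2% and 21.6%. Group membership uses the same covered bases, so these values follow in part from the split.

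**Figure D3:**
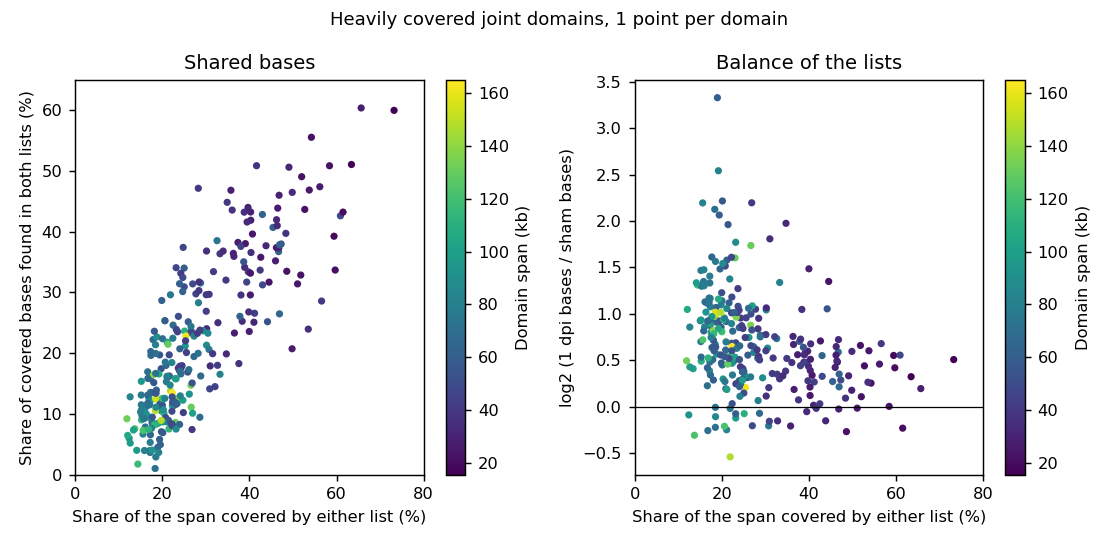
Each point is 1 of the 277 domains, coloured by span in kb, with the share of the span covered by either list on the horizontal axis (%). Left, the share of covered bases present in both lists (%) rises from a lowest value of 1.03% to 60.4% as coverage becomes denser; right, the log2 ratio of 1 dpi to sham bases reaches 3.33 among sparsely covered domains and is nearer to 0 among dense ones.

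Dense and sparse domains also differed in their internal shape. When each domain was divided into 10 equal parts, mean sham coverage in the densest group rose from 14.2% in the first part to 38.0% in the sixth and fell to 14.6% in the last. At 1 dpi it rose from 23.4% to 46.8% and fell to 20.2%, and bases covered in both lists went from 7.39% to 26.5% and back to 5.95%. Both conditions thus had their highest coverage near the middle of these domains. In the sparsest group coverage was nearly level, at 6.17 to 7.67% in sham and 11.3 to 14.1% at 1 dpi. A domain begins and ends with a region by construction, and it stops where no further region lies within the merging distance. The groups were split by the same covered bases that are profiled here. Both shapes may therefore follow from the construction and the split, and a part beyond these was not tested.

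**Figure D4:**
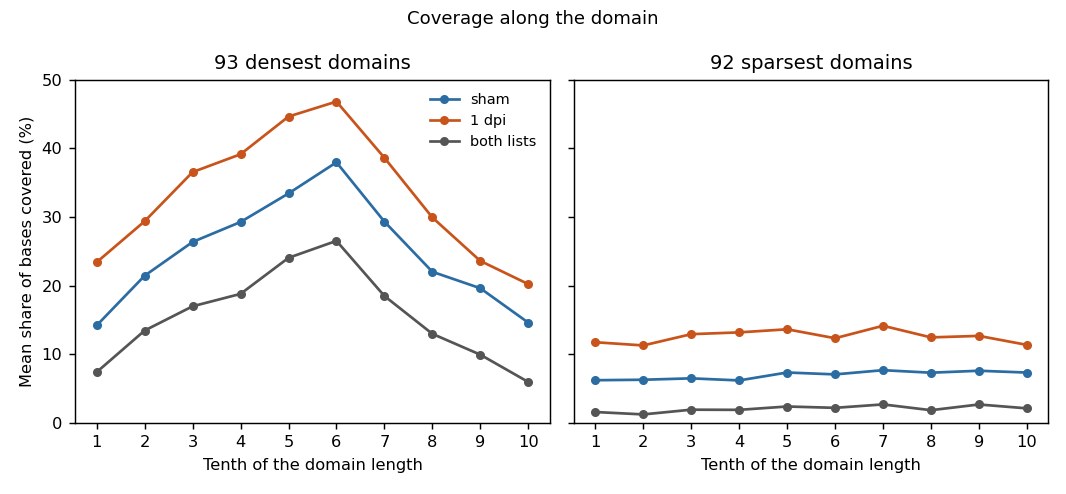
Mean share of bases covered (vertical axis, %) in 10 equal parts of the domain length for the 93 densest (left) and 92 sparsest (right) domains, with sham in blue, 1 dpi in orange and bases in both lists in grey. Coverage peaks in the sixth part of dense domains in both conditions, at 38.0% and 46.8%, and stays flat in sparse domains.

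Joining the regions of both lists gave 12452 separate covered blocks in the 277 domains. Of these, 2768, or 22.2%, held regions of both lists, 3287 held sham regions only and 6397 held 1 dpi regions only. The mean width of blocks with both lists was 751 bp, compared with 231 bp for sham-only and 232 bp for 1 dpi-only blocks, and they made up 48.1% of the covered length. Blocks of at least 1000 bp numbered 594 with both lists, 21 with sham only and 35 with 1 dpi only. The widest block of a domain contained both lists in 245 of the 277 domains. A common block joins at least 2 regions, and a wide region is more readily overlapped, so these widths follow in part from the construction. Blocks of the other joint domains were not counted, so the block shares describe the members only.

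Within the common blocks, 1 dpi bases were 1.28 times the sham bases, and over the blocks of a single list they were 1.95 times. The blocks were divided by the same coverage, and requiring a region of each list brings common blocks toward balance, so nothing is read from the difference of these ratios. In the common blocks, 1 dpi regions covered more bases in 1614 of 2768 and sham regions in 894. Most common blocks, 2368 of 2768, were made of a single region of each list. In these, the sham region lay wholly within the 1 dpi region in 688, the reverse held in 274, and the limits were identical in 2. In the remaining 1404 the regions were displaced against each other. Over all 2368 such blocks, a median of 42.2% of a block was covered in both conditions.

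Regions without an overlap were often near one of the other condition. Of the 3293 sham regions in the domains that no 1 dpi region overlapped, 69.8% had one within 1000 bp, at a median distance of 564 bp. The 6402 unshared 1 dpi regions lay a median of 1039 bp from a sham region, and 48.6% had one within 1000 bp. The gaps between covered blocks had a median of 723 bp, so neighbouring regions of any kind were close. Merging within 5000 bp builds in such closeness, and the domains held more 1 dpi regions (9343) than sham regions (6451). The distances were not compared with those in other joint domains, so nothing particular to the members is read from them.

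Member regions were wider than those of the lists as a whole. The 6451 sham regions averaged 322 bp (SD 336) and the 9343 1 dpi regions 340 bp (SD 420), while the lists averaged 229 and 220 bp. The order of sham and 1 dpi turned when regions were merged within 10000 bp, with means of 276 and 270 bp. Regions of at least 500 bp made up 15.8% of sham and 15.3% of 1 dpi member regions, beside 6.52% and 4.8% of all regions. The members held 37.2% of all sham regions of at least 1000 bp (287 of 771) and 43.8% of those at 1 dpi (473 of 1079). Of the 73 sham and 203 1 dpi regions that reached 2000 bp, members were 60.3% (48.8 to 70.7%) and 63.1% (56.2 to 69.4%). Width is part of covered length, so the wide regions helped to choose the domains.

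The widest region of each whole list lay in the compact domain of chromosome 8. It measured 4753 bp in sham (67762423 to 67767175) and 7320 bp at 1 dpi (67760818 to 67768137). The 1 dpi region contained the sham region entirely and extended beyond it on either side. Another wide pair was found on chromosome 14, where a sham region of 3817 bp (3059501 to 3063317) and a 1 dpi region of 5203 bp (3060267 to 3065469) overlapped over most of their length. On chromosome 1, 99.2% of a sham region of 3495 bp (271944726 to 271948220) was covered at 1 dpi.

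Overlap between the conditions was counted for member regions sharing at least 1 bp. In the domains, 49.0% of sham regions (47.7 to 50.2%) were overlapped by a 1 dpi region, beside 20.7% of all sham regions. Of 1 dpi regions, 31.5% (30.5 to 32.4%) were overlapped by a sham region, beside 16.8% of all. The share depended on width. In sham it was 35.1% for single windows and 92.7% (89.1 to 95.2%) once a width of 1000 bp was reached. At 1 dpi it was 16.1% and 92.6% (89.9 to 94.6%). Over the whole lists, single windows were overlapped in 13.9% and 10.1% of cases and regions reaching 1000 bp in 85.9% and 91.8%. Between these widths, the sham shares in members and in the whole list were 52.6% and 26.4% below 500 bp and 72.5% and 49.7% from 500 bp up to 1000 bp. The 1 dpi shares were 31.1% and 21.9%, and 63.2% and 56.5%. The whole lists include the members. The part that close packing has in these overlaps was not tested.

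Member regions were frequent at the head of each list. HOMER writes regions from the highest score down, although the lists do not state their order. Of the first 5% listed, 19.9% of sham regions and 32.2% of 1 dpi regions lay in the 277 domains. Seen from the members, 12.6% of sham regions (11.9 to 13.5%) and 17.1% of 1 dpi regions (16.4 to 17.9%) were among the first 5%, beside 5% of all regions by definition. A region from the first 5% was present in 247 domains in sham and in 273 at 1 dpi. Of the first 100 regions listed, 51 in sham and 64 at 1 dpi were members, and of the first 20, 4 and 8. The head of the list was also richer in dense domains. There 22.0% of sham and 32.7% of 1 dpi regions were among the first 5%, against 6.59% and 9.24% in sparse domains. Regions of the first 5% averaged 785 bp in sham and 816 bp at 1 dpi, against 229 and 220 bp over the whole lists. Covered length, of which width is a part, chose the domains and split them into dense and sparse. The shares in this paragraph therefore follow in part from the selection.

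**Figure D5:**
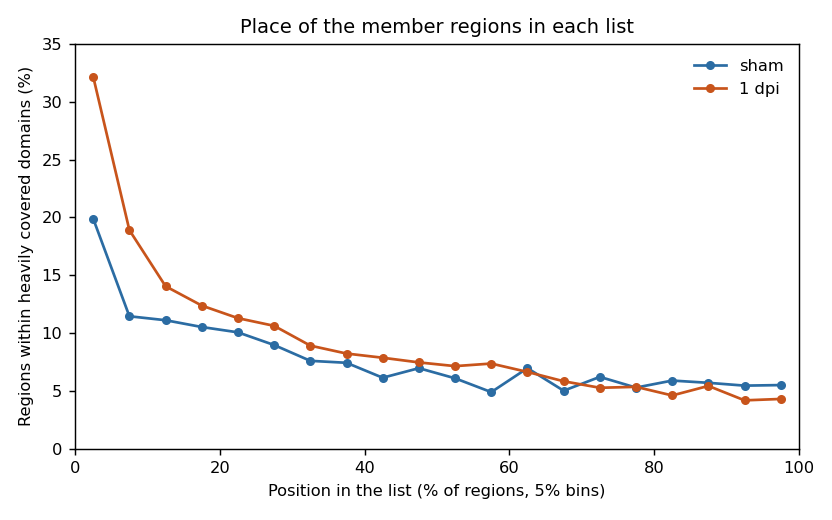
Share of regions that lie in heavily covered domains (vertical axis, %) by position in the sham list (blue) and the 1 dpi list (orange), in bins of 5% of each list. The share is 19.9% and 32.2% in the first bin and declines to 5.51% and 4.31% in the last.

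The domains were found on all 21 chromosomes in the lists. Chromosome 3 had the most, 33, followed by 30 on chromosome 10, 25 on chromosome 1 and 23 on chromosome 8. In the same order, members were 7.66%, 5.99%, 4.08% and 5.52% of the joint domains of the chromosome, beside 5.02% over all chromosomes. Relative to length, taken as the end of the last region, chromosome 10 had 2.68 per 10 Mb, chromosome 20 had 2.08 and chromosome 12 had 2.03, whereas chromosome X had 0.194. Chromosome X had only 3 members, but these were 18.75% of its 16 joint domains, the highest share of any chromosome. They held 14.2% of its sham regions and 14.1% of its 1 dpi regions, also the highest shares. These were only 58 and 67 regions, and chromosome 3 came close with 13.5% and 14.0%. The summed ratio of 1 dpi to sham bases lay above 1 on every chromosome, from 1.09 on chromosome 16 (3 domains) to 1.90 on chromosome 8 (23 domains). On chromosome 16, however, 2 of the 3 domains had more sham bases, and the median ratio was 0.983. Chromosomes 3, 4 and 12 held 4, 3 and 4 of the 26 domains with more sham bases, and on chromosomes 2, 8, 9, 11, 13, 15, 17 and 18 there was none.

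Many of the domains lay close to one another, some only just beyond the merging distance. The gap was 5023 bp between a pair on chromosome 2, 5270 bp on chromosome 6 and 5328 bp on chromosome 19. A slightly larger merging distance would have joined such pairs. The counts of near neighbours and groups below therefore depend in part on the rule. These counts were not compared with the spacing of the other joint domains. The median gap to the nearest member was 741 kb, 157 of 277 had another within 1 Mb, and 67 had one within 100 kb. Those 67 formed 29 groups, of which 6 had at least 3 domains. The largest was on chromosome 8 (65645645 to 66049553), where 5 domains held 121 sham and 210 1 dpi regions covering 26.5 and 60.9 kb, a ratio of 2.30. Further along chromosome 8 (66304011 to 66579447), 3 domains had 13.1 kb in sham and 28.3 kb at 1 dpi, a ratio of 2.16. Both groups leaned toward 1 dpi, and they held the members with the second and the third smallest shared share.

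Other groups ranged from a similar lean toward 1 dpi to a lean toward sham. On chromosome 4 (196979378 to 197460485), 4 domains had 38.9 kb in sham and 82.0 kb at 1 dpi, a ratio of 2.11. A pair elsewhere on chromosome 4 (180611441 to 180886885) had 24.7 kb in sham and 20.9 kb at 1 dpi, a ratio of 0.844. On chromosome 19 (64471852 to 64787152), 3 domains had 28.5 and 41.2 kb, a ratio of 1.45 near that of all members.

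Compared with the 277 joint domains that came next in covered bases, the members differed in length more than in the balance of the lists. The median span was 60.5 kb for members and 41.5 kb for the next domains, and a median of 24.0% and 19.3% of the span was covered. The median ratio of 1 dpi to sham bases was 1.52 and 1.48. Shared bases were a median of 19.5% and 13.2% of those covered, and the quotient of shared bases to the product of the covered shares was 2.09 and 2.07. No test of these differences was made, since coverage defined both sets.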

How the data were processed

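H2AK119ub1 was profiled by ChIP-seq after micrococcal nuclease digestion of sciatic nerve chromatin. Per the submitters' processing notes, CASAVA 1.8.2, Bowtie and HOMER were applied, with rn5 (Rnor_5.0) as the reference. The authors, per the file headers, combined the libraries of a condition and called regions with findPeaks (peak size 150 bp, minimum distance 370 bp, adjacent windows stitched, 4-fold over input and over the surrounding 10 kb, false discovery rate 0.001); the HOMER version was not given in the sources used here. At most 1 tag per bp was counted in sham and 3 at 1 dpi. The score column of the deposited lists is 1 for every region and holds no height, so only start and end in bp were used. Coordinates are counted from 1.

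Domains were built in Python 3.11.15 and checked against bedtools 2.31.1 and on simulated lists. Named domains were those with the most covered bases, the greatest length, and the extreme ratios and shares. The members, lists and rules were chosen with earlier results of these data known. Alternatives changed the merging distance, the coverage minimum, the overlap, and the regions admitted. Widest regions beyond the first of each list and groups of neighbouring domains were picked after their values were seen. Wilson intervals are at 95% and cover counting error only. Sequences and genes were not analysed here, because no genome of rn5 was used.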

Additional observations from a re-analysis of the deposited data

How the results depend on the processing

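Recomputing 10 results gave 74 values. The number of domains was judged by a 1.5-fold limit and other results by their 95% interval, and 24 values were inside these limits and 50 outside. The intervals treated regions, covered blocks or domains as independent units, although all come from the same 2 lists. They serve only as a working limit. The direction of the balance between the lists was kept, but the order of the mean widths turned in 1 setting, merging within 10000 bp, where sham regions were the wider. The share of domains with more 1 dpi than sham bases stayed at 87.2 to 90.5% in every alternative run for it. Unless the construction is named, the cause was not tested.

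Merging within 2000 bp left 84 domains with a 1 dpi to sham ratio of 1.35, widths of 454 bp in sham and 578 bp at 1 dpi, 35.6% of bases in both lists, 68.9% of sham and 54.7% of 1 dpi regions overlapped, and 23.6% and 36.3% of them among the first 5% listed. Merging within 10000 bp gave 517 domains, widths of 276 and 270 bp, 15.2% of bases in both, overlaps of 37.9% and 23.0%, and listing shares of 8.90% and 10.1%. A minimum of 8000 bp gave 438 domains, a 1 dpi width of 325 bp, 20.6% of bases in both, overlaps of 46.9% and 30.5%, and 15.6% of 1 dpi regions in the first 5%. A minimum of 15000 bp left 105 domains.

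With equal numbers of regions by listing order the ratio was 1.46, the widths 332 and 374 bp, 23.3% of bases were in both lists and 35.5% of 1 dpi regions were overlapped. With the first 50% of each list there were 132 domains, widths of 480 and 527 bp, 28.5% of bases in both, overlaps of 61.7% and 41.2%, and listing shares of 17.3% and 22.0%. Regions wider than a single window gave 117 domains, a ratio of 1.45, widths of 533 and 620 bp, 30.4% of bases in both, overlaps of 64.5% and 46.4%, and listing shares of 17.3% and 24.1%. Removing narrow regions raises mean width by construction. When at least 50% of a region had to be covered, 36.8% of sham and 19.0% of 1 dpi regions were overlapped. Counting the first 25% of the list gave 40.1% and 47.2%, more by construction.

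The rank relation of covered share with shared share, for which the alternatives were chosen after seeing the data, had a rho of 0.724 to 0.835, and that with the quotient of shared bases to the product of covered shares -0.542 to -0.23. No paired analysis was possible because replicates were combined within each list before calling, and for the same reason no replicate could be left out.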
